A study of Mus musculus with 2 samples.

Results

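The 511 transcripts described here carry the annotated type nonsense-mediated decay (NMD) in GENCODE release M21 and had 1 read or more in long-read RNA libraries of mouse calf muscle. They were chosen by that annotated type alone, among reads assigned to an annotated transcript (called annotated-transcript reads below), and they are 511 of the 18942 annotated transcripts read and 511 of the 7186 NMD transcripts annotated (7.11%). Replicate 1 held 365 of them, replicate 2 held 343, and 197 were read in both. The tissue was gastrocnemius, a fast-fibre muscle of the calf, from male B6CASTF1/J mice, the F1 cross of C57BL/6J and CAST/EiJ, aged 25 days and with no treatment named. The series is 1 group of 2 biological replicates with 2 µg of RNA each, so no condition was compared. The labels name different animals for the 2 libraries but refer them to a single donor entry. The 95% intervals and tests below take in the error of counting reads and nothing else.

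Nonsense-mediated decay is a surveillance pathway that removes messenger RNA whose translation ends too early. In mammals the main cue is an exon junction that remains downstream of the stop codon: a protein complex left at that junction by splicing is not cleared by the ribosome, and the helicase UPF1 and its partners then direct the RNA to degradation. Annotators give a spliced transcript the NMD type when its coding sequence ends more than 50 bases upstream of the last junction. The type is thus a prediction from structure, and a read counts RNA that was present when the muscle was taken. Neither synthesis nor decay was measured.

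The sequences of 8 members show the ways in which an early stop, or a junction after the usual stop, arises. Each line gives the last 30 bases of the annotated coding sequence, 5′ to 3′ on the transcript, with the stop codon in capitals, from the M21 transcript sequences (mm10, the C57BL/6J reference).
Smpx-201: ctgaaatttgtccccaaaggtgaacagTAG
E2f6-204: ctagccaggtgtggtggcccagttctgTAA
Ddx5-208: accgatgtggcctccagagggctaggtTAG
Actg1-206: gttcctcttctcctggcatttcctcccTGA
Yaf2-202: aatgccttgaggaccaagggaccgttgTGA
Srsf9-205: cctgggttggagattacggattcacagTAG
Smdt1-204: ttggtcttctccgagtgttctccattgTGA
Tnnc1-203: tcggatctcttccgcatgtttgacaaaTGA

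The stop of Smpx-201 (chrX:157721060-157721062, plus strand, exon 4 of 6) is the usual stop of the gene, and the same 30 bases occur in 3 coding transcripts of Smpx. The stops of E2f6-204 (chr12:16813877-16813879, plus strand), Actg1-206 (chr11:120347501-120347503, minus strand), Yaf2-202 (chr15:93317554-93317556, minus strand) and Srsf9-205 (chr5:115328426-115328428, plus strand) lie in an exon that no coding transcript of the gene overlaps, of 66, 45, 70 and 358 bases. None of their 30-base ends occurs in a coding transcript of the gene. The stop of Ddx5-208 (chr11:106783954-106783956, minus strand) lies in a stretch that the coding transcripts of the gene splice out as an intron. In Smdt1-204 (chr15:82347934-82347936, plus strand) another splice site upstream changes the frame, so that bases found in 3 coding transcripts of the gene are read to a stop in another frame. In Tnnc1-203 (chr14:31211307-31211309, plus strand) the stop lies whole in exon 5 of 6, with 1 base of that exon before it, so the bases printed before the stop come from the exon upstream, apart from that one.

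Reads numbered 1292409 in replicate 1 and 1703457 in replicate 2, with 800317 and 1094076 on annotated mouse transcripts, and 3 reads, the limit set for a count of 0, were 0.000375% and 0.000274% of those. All 7 muscle markers were read, with summed levels of 223955 and 234785 reads per 1000000 gene reads in replicates 1 and 2. Fibroblast markers, 4 of 4 read, summed to 4118 and 705, Schwann cell markers to 60.0 and 305, and cardiac markers, of which 2 and 1 of 3 were read, to 4.11 and 1.29. The median annotated length over annotated-transcript reads was 1777 bases in replicate 1 and 1289 in replicate 2. The part of these differences in any difference between the libraries was not tested, and in bulk tissue fewer cells of a type and less RNA per cell cannot be told apart.

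NMD transcripts held 1278 of the annotated-transcript reads in replicate 1 and 1544 in replicate 2. That was 0.160% (95% exact interval 0.151 to 0.169) and 0.141% (0.134 to 0.148), a mean of 0.150% ± 0.0131 (SD, n = 2). The interval of replicate 1 lay above that of replicate 2, and a two-sided Fisher exact test of NMD against other annotated-transcript reads gave p = 0.00111 between these 2 libraries. That difference did not hold at each setting: over all reads in annotated genes the shares were 0.105% and 0.0996% (p = 0.160, Fisher exact test), and over transcripts with 5 reads or more in the library they were 0.0998% and 0.104% (p = 0.430). Without Smpx, the gene with most NMD reads, it was wider, at 0.143% and 0.111% (p = 6.2e-10, Fisher exact test). Transcripts annotated as protein coding, for scale, held 96.7% and 94.4% of annotated-transcript reads, with 24.8% of the 58883 annotated ones read. Those annotated as retained intron, another class with an unusual structure, held 0.819% and 2.20%, with 7.44% of 21848 read.

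Most members were seen in very few reads. Over both libraries 232 had 1 read, 165 had 2 to 4, 66 had 5 to 9 and 48 had 10 or more, and these 48 held 61.3% of all 2822 NMD reads. Of the NMD reads, 50% lay on 23 transcripts and 32.5%, or 916 reads, on 5: Smpx-201, E2f6-204, Chpt1-207, Ddx5-208 and Actg1-206. Smpx-201 alone made up 132 of the 1278 NMD reads in replicate 1 and 324 of the 1544 in replicate 2.

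A member with more reads in one library was more often read in the other. Of members with 1 read in replicate 1, 37.4% were read in replicate 2, against 67.5% of those with 2 to 4, 87.9% of those with 5 to 9 and 100% of those with 10 or more. From replicate 2 to replicate 1 the shares in the same bands were 39.7%, 64.6%, 88.6% and 96.2%. From replicate 1, protein coding transcripts of the same bands gave 36.0%, 66.2%, 86.4% and 98.6%, and from replicate 2, 60.1%, 87.0%, 96.4% and 99.9%. From the deeper replicate 2 the NMD shares were thus the lower ones at each band, without overlap of the intervals below 5 reads. No test was made of this difference.

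**Figure D1:**
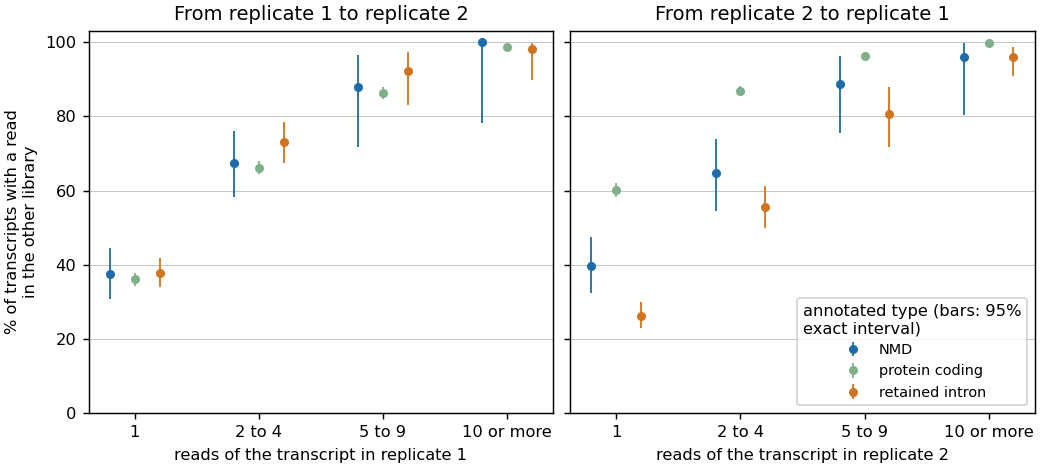
The share of transcripts of one library that had a read in the other (y axis, %), by reads in the first library (x axis), for NMD, protein coding and retained intron transcripts, with 95% exact intervals. From replicate 1 the 3 types lie close together, and from replicate 2 NMD transcripts with 1 read (39.7%) lie below coding ones (60.1%) and above retained introns (26.2%).

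The place of the stop codon in the gene divides the members into a few structural kinds. In 298 (58.3%) the stop fell inside sequence that coding transcripts translate in another frame, in 81 (15.9%) in an exon that no coding transcript overlaps, and in 69 (13.5%) in a stretch added to a coding transcript's exon, which includes kept introns. In 50 (9.78%) it was the very stop of a coding transcript, and 9 had it in an untranslated exon part of coding transcripts. Another 3 belonged to genes with no complete coding transcript, and 1 had no annotated stop. Over all 7186 annotated NMD transcripts, the first 4 kinds made up 57.3%, 20.1%, 12.8% and 7.03%.

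Reads were spread over these kinds differently from transcripts. The 298 with a stop in another frame held 476 and 647 reads (37.2% and 41.9% of NMD reads in replicates 1 and 2). The 50 with a coding transcript's stop held 264 and 488 reads (20.7% and 31.6%), 132 and 324 of which were Smpx-201. The 81 with an added exon held 329 and 252 reads (25.7% and 16.3%), among them 113 and 72 of E2f6-204. The added exon was 112 bases long at the median, and 33 of the 81 had a length divisible by 3.

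**Figure D2:**
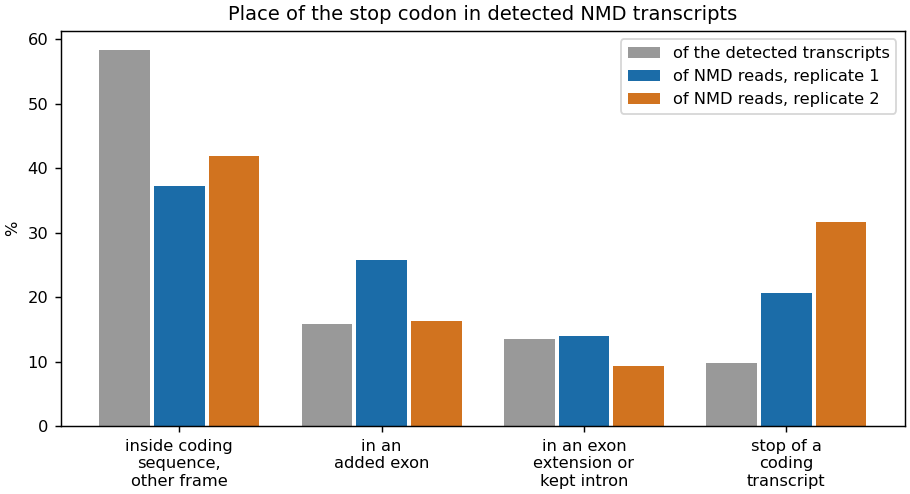
The share (y axis, %) of the 511 detected NMD transcripts and of the NMD reads of replicates 1 and 2, by the place of the stop codon. Transcripts with a stop in another frame are 58.3% of transcripts but 37.2% and 41.9% of reads, and those ending at a coding transcript's stop are 9.78% of transcripts but 20.7% and 31.6% of reads.

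Against the most-read coding transcript of the gene, the 298 with a shifted frame mostly differed in a single kind of event. Another splice site was used in 140, alone in 136, and an exon was skipped in 135, alone in 132. An added exon was found in 18, another start codon in 5, a kept intron in 3 and none of these events in 4. Coding sequence was short: in the 435 members with a complete start and a read coding transcript it was 36.6% of the length of that transcript's at the median. The whole transcript was shorter than the coding one in 381 of 485 and longer in 104, with medians of 1528 and 2124 bases.

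The distance from stop to last junction is part of the annotated type and is given as a description. It was 272.5 bases at the median of 510 members and ran from 38 to 3222, with 508 above 50 bases. The exceptions were Ubl5-205, at 38 bases, and Thap12-204, at 50. In 19 members it was 50 to 59 bases, Smpx-201 among them with 52, and 368 had 2 junctions or more after the stop. All annotated NMD transcripts had a median of 334 bases.

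**Figure D3:**
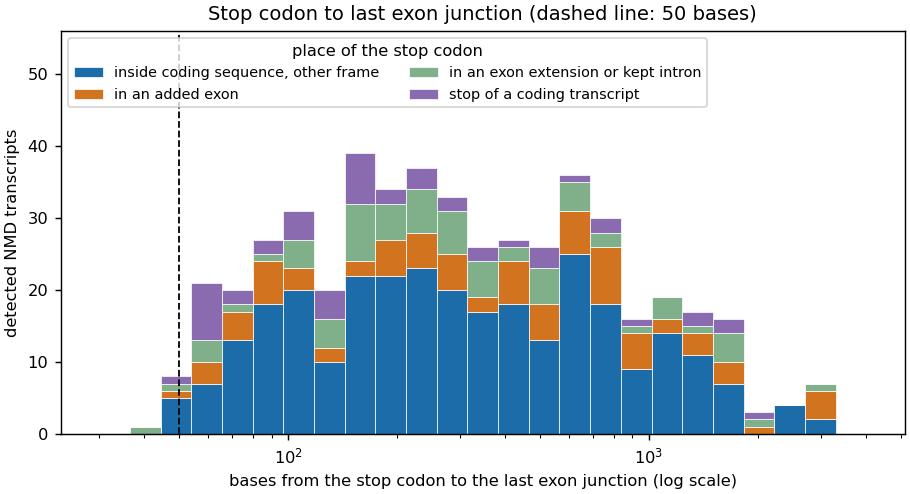
The number of detected NMD transcripts (y axis) by the distance from the stop codon to the last exon junction (x axis, bases, log scale), stacked by the place of the stop. The median is 272.5 bases, 508 of 510 lie above the dashed line at 50 bases, and stops shared with a coding transcript are frequent just above it.

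Detected members differed from the rest of the type in length and in annotation support. They were 1574 bases long at the median, against 1214 for NMD transcripts without a read, with 7 exons in both sets. Transcript support level 1, the best grade given to the evidence for a model, applied to 259 (50.7%), against 28.9% of all NMD transcripts annotated. The stop codon was TGA in 58.2% of members, TAG in 21.6% and TAA in 20.2%, against 51.3%, 22.5% and 26.2% of detected coding transcripts. All annotated NMD transcripts were close to the members, with 57.9%, 19.7% and 22.5%.

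Smpx, which encodes a small cytoskeletal protein of striated muscle, led the set. Smpx-201 (chrX:157698910-157752591) had 132 of the gene's 153 annotated-transcript reads in replicate 1 and 324 of 398 in replicate 2, or 86.3% and 81.4%. The coding Smpx-203 had 18 and 65 reads, and a second NMD transcript, Smpx-207, had 2 and 9. Smpx-201 was thus the most-read Smpx transcript in both libraries. Its coding sequence is identical to that of Smpx-203 and lies whole before a 35-base exon that Smpx-203 does not have, which places the stop 52 bases before the last junction instead of 17.

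The count of Smpx-201 rests on which of 2 annotated models the reads were assigned to. Smpx-208, annotated as protein coding, has the same introns, the same coding sequence and the same 52 bases from stop to last junction, and differs from Smpx-201 by 63 bases at the 5′ end and 2 at the 3′ end. It had 0 reads in both libraries. A further 6 members share all introns with a protein coding transcript of their gene (Tbrg4-211, Prmt6-202, Abraxas1-209, Cys1-201, Flot2-205 and Srsf2-202, chosen here for that property), and their coding counterparts were also at 0 reads. These 7 held 142 and 339 NMD reads, 11.1% and 22.0% of the total, and without them the NMD share of annotated-transcript reads was 0.142% and 0.110%. The opposite case occurred too: 11 NMD transcripts without a read share their introns with coding transcripts that had 136 and 78 reads, most of them on Prkag3-206 (91 and 47), from the gene of a muscle subunit of AMP-activated kinase.

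Chpt1, the gene of the enzyme that makes phosphatidylcholine from diacylglycerol, had a member of the same kind. Chpt1-207 had 42 of 182 annotated-transcript reads in replicate 1 and 61 of 200 in replicate 2 (23.1% and 30.5%, intervals overlapping). It carries the coding sequence of the coding Chpt1-201, which had 72 and 40 reads, and adds a junction 72 bases after the stop. In all, 37 members hold the full coding sequence of a coding transcript, with 243 and 460 reads, or 19.0% and 29.8% of NMD reads. Fbxo17-202, of an F-box gene, was another, with 6 of 10 and 11 of 16 reads.

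E2f6 encodes a repressor of the E2F transcription factor family. E2f6-204 (chr12:16811099-16826752) held 113 of 150 reads in replicate 1 and 72 of 93 in replicate 2, or 75.3% and 77.4%, while the coding E2f6-201 held 35 and 19. The NMD transcript was in both libraries the most-read one, and the intervals of the 2 libraries overlapped (67.6 to 82.0% and 67.6 to 85.4%). Its 66-base exon stops translation 724 bases before the last junction, after 16.9% of the coding length of E2f6-201.

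In other genes whose NMD transcript had an exon of its own, the intervals of both libraries also overlapped. Actg1-206, of the cytoplasmic gamma-actin gene, had 50 of 127 reads in replicate 1 and 29 of 89 in replicate 2 (39.4% and 32.6%), against 76 and 59 reads of the coding Actg1-202. Yaf2-202, of a gene for a partner of Polycomb complexes, had 17 of 36 and 21 of 53 (47.2% and 39.6%). Thap12-202 had 21 of 91 and 5 of 36. Myoz2-203 stood lower: this gene of the Z-disc protein calsarcin-1 had 6 of 173 and 13 of 411 reads on it (3.47% and 3.16%).

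The intervals overlapped as well for the leading members with another splice site or a skipped exon. Smdt1-204, of the gene of EMRE, which the mitochondrial calcium uniporter needs to open, had 12 of 93 reads in replicate 1 and 28 of 222 in replicate 2 (12.9% and 12.6%). Cyth2-203, of a gene for an exchange factor of ARF GTPases, had 18 of 27 and 16 of 25 (66.7% and 64.0%), and was the most-read Cyth2 transcript in both. Adhfe1-201, from the gene of hydroxyacid-oxoacid transhydrogenase, a mitochondrial enzyme, skips an exon and had 22 of 61 and 17 of 72. Psma3, a proteasome subunit gene with 3 NMD transcripts read, had 14 of 223 and 33 of 483 (6.28% and 6.83%).

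**Figure D4:**
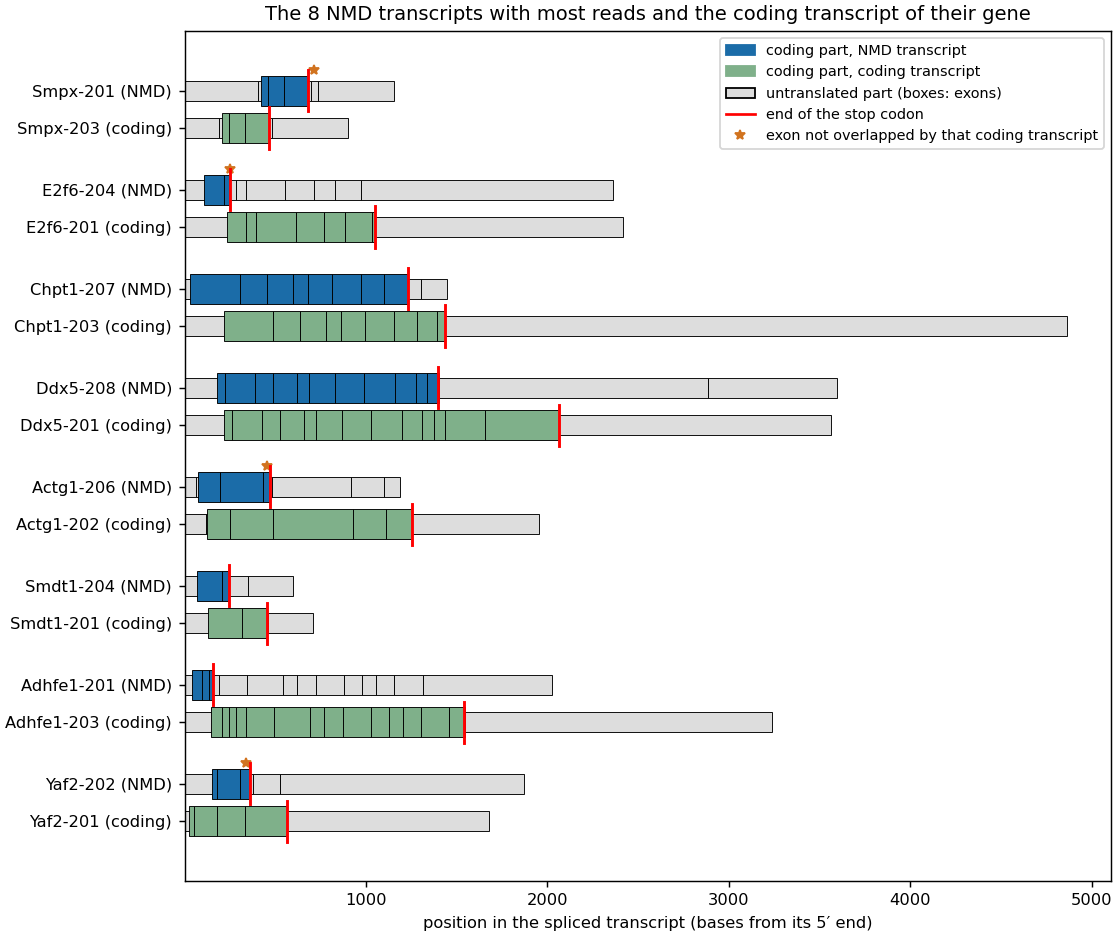
Spliced maps of the 8 NMD transcripts with most reads (blue coding part) and the most-read coding transcript of each gene (green), with position from the 5′ end on the x axis in bases. The stop (red) of E2f6-204, Actg1-206, Adhfe1-201 and Yaf2-202 lies early with several exons after it, and in Smpx-201 an exon absent from Smpx-203 (star) follows the usual coding sequence.

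Only Ddx5-208 differed between the libraries past the threshold. Over every annotated transcript of genes with 10 or more such reads in each library, 97 of 6157 (1.58%) passed a two-sided Fisher exact test of their share at a Benjamini-Hochberg adjusted p under 0.05. Of the members, 1 of 301 tested passed. An unadjusted p under 0.05 in that test was found for 3 of the 301 members and for 404 of all 6157 transcripts. A member with 1 read over both libraries, such as Abhd11-205 (0 of 67 and 1 of 131), can hardly reach such a p. Reads per transcript were not matched, so these rates do not compare how steady NMD shares and other shares are. Ddx5-208 had 77 of 177 reads in replicate 1 and 16 of 90 in replicate 2, or 43.5% and 17.8%, a difference of 25.7 points (adjusted p = 0.00238, Fisher exact test). The coding Ddx5-201 had 100 and 74 reads. Ddx5 encodes a DEAD-box RNA helicase that acts in transcription and splicing, and Ddx5-208, at 3593 bases, keeps an intron. Transcripts annotated as retained intron passed the same test in 28 of 970 (2.89%), and each of these 28 had a lower share in replicate 1, the direction opposite to that of Ddx5-208. With the variance between libraries set to 2 times that of counting error, Ddx5-208 did not pass (adjusted p = 0.291, chi-square test across all transcripts).

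Rbm7-204 and Zdhhc3-211, named because their unadjusted p was also under 0.05, rested on few reads. Rbm7-204 had 9 of 14 in replicate 1 and 2 of 13 in replicate 2, and Zdhhc3-211 had 0 of 39 and 3 of 16. Neither passed after adjustment (adjusted p = 0.454 and 0.494, Fisher exact test).

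Counted by gene, the type was widespread in annotation and thin in reads. NMD transcripts are annotated in 4576 genes, of which 1813 had 10 or more annotated-transcript reads over both libraries, and 361 of those (19.9%) had an NMD read, 169 in both libraries. Another 93 genes had an NMD read but fewer reads than that minimum. At the minimum itself, 6 genes with 10 reads had between 1 and 7 NMD reads, and just below it 7 genes with 9 reads had between 1 and 5. In the 361 genes the NMD share over both libraries was 5.13% at the median: under 1% in 61, from 1% to under 10% in 200, from 10% to under 50% in 84, and 50% or more in 16.

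The other genes at the top had few reads each. An NMD transcript was the most-read one in both libraries in 6 genes: Smpx, E2f6, Cyth2, Tmem238, Fbxo17 and Meaf6. Tmem238-202 had 8 of 11 reads in replicate 1 and 13 of 15 in replicate 2. Meaf6-208, of a gene for a subunit of histone acetyltransferase complexes, had 3 of 6 and 4 of 6. The gene share of Hpf1, a partner of the ADP-ribosylating enzyme PARP1, was 3 of 6 and 10 of 18, and that of Tmem183a 5 of 12 and 6 of 8. Crebzf, a leucine zipper gene, had 3 NMD transcripts read, with 11 of 20 and 1 of 3. Tmem234, with 5 NMD transcripts read out of 13 annotated, had 19 of 33 and 21 of 46.

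**Figure D5:**
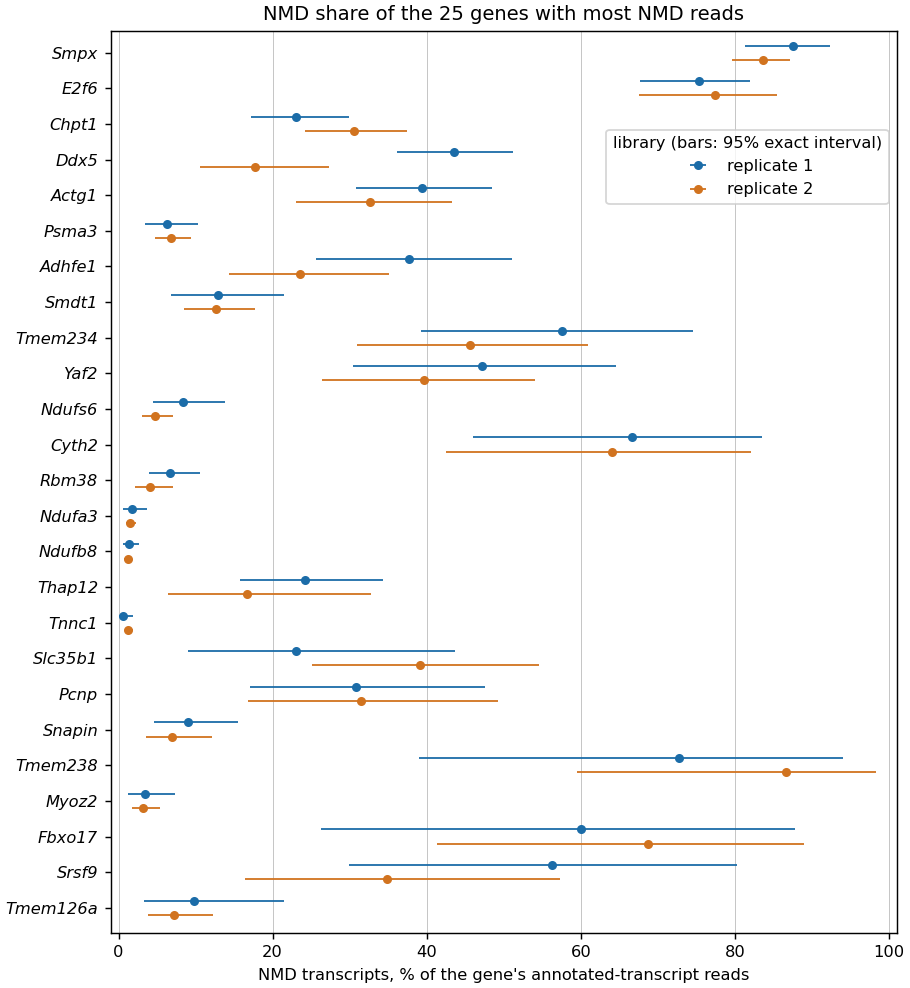
NMD share of the annotated-transcript reads (x axis, %) of the 25 genes with most NMD reads, in replicate 1 (blue) and replicate 2 (orange), with 95% exact intervals. Smpx and E2f6 lie above 70% in both libraries, and the intervals of Ddx5 (43.5% and 17.8%) do not overlap.

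Gene shares were set side by side where both libraries had enough reads. Of 259 genes with an NMD read and 10 annotated-transcript reads or more in each library, 134 had the higher share in replicate 1 and 124 the lower. Across the 188 with 20 reads or more in each, Pearson's r was 0.93 and Spearman's rho 0.43. The 2 coefficients are over genes, which are not independent replicates and share their 2 libraries. Slc35b1, for a transporter of the endoplasmic reticulum, was among the wider apart, with 6 of 26 reads in replicate 1 and 18 of 46 in replicate 2. Pcnp was among the closer, with 12 of 39 and 11 of 35.

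Genes of splicing regulators are known for exons that introduce a stop and lower the gene's own output. Some of their NMD transcripts instead keep the full coding sequence of a coding transcript and add a junction after its stop. Of 52 on the list, 37 have an NMD transcript annotated, 30 had 10 annotated-transcript reads or more, and 14 of those (46.7%) had an NMD read, against 19.9% of all such genes. NMD reads were 46 of the 1222 of the list in replicate 1 and 41 of 1023 in replicate 2, or 3.76% and 4.01%. All genes with an NMD transcript annotated gave 0.847% and 0.777%. Unlike that set, the list's totals include genes with no NMD transcript annotated. The median share of the 14 was 7.00%, against 5.13% of the 361, and 0 of 10 genes tested had a member past the threshold between libraries. The difference between the list and other genes was not tested, and neither depth nor the number of NMD transcripts annotated per gene was matched.

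Within that list the SR protein gene Srsf9 had 9 of 16 reads in replicate 1 and 8 of 23 in replicate 2 on Srsf9-205, which contains an exon of 358 bases. The coding Srsf9-201 had 7 and 15. Tardbp, the gene of TDP-43, a protein known to limit its own level, had 4 of 12 and 7 of 10, with 4 and 5 reads on Tardbp-201. Hnrnpdl had 7 of 31 and 6 of 41, all on Hnrnpdl-201, whose stop is followed by 2 junctions. Hnrnpa1 had 7 of 57 and 1 of 35, and Rbm39 had 5 of 69 and 3 of 40. Tardbp-201, Hnrnpdl-201 and Hnrnpa1-203 each hold the full coding sequence of a coding transcript. Their last junctions lie 84, 126 and 90 bases after the shared stop, so none of the 3 ends early. Of the others, named here after their values were seen, Srsf6 had 3 of 42 and 5 of 28, and Srsf3 had 2 of 32 and 2 of 42. Srsf6-201 holds the coding sequence of the 515-base coding Srsf6-202, which had 0 reads in both libraries.

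The abundant genes of the muscle fibre had few NMD reads. In the contractile list of 40 genes, 5 have an NMD transcript annotated. Of these, 1 (20.0%, against 19.9% of all such genes, depth not matched) had NMD reads: Tnnc1, the gene of slow and cardiac troponin C. Tnnc1-203 had 2 of 375 reads in replicate 1 and 24 of 1877 in replicate 2 (0.533% and 1.28%, intervals overlapping). These were 2 of 316742 reads of the list in replicate 1 and 24 of 423820 in replicate 2. Those totals include the genes with no NMD transcript annotated. All 4576 genes with one annotated held 150815 and 198638 reads, so most reads of the list could not be NMD reads. Tpm1, the gene of alpha-tropomyosin, has 2 NMD transcripts annotated and had 0 NMD reads among 29521 and 41771, which allows a share of up to 0.00421%.

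Genes of oxidative metabolism were similar, with low but recurring members. Of 38 on the list, 12 have an NMD transcript annotated. Of these, 3 (25.0%, against 19.9% of all such genes, depth not matched) had NMD reads, each in both libraries. Ndufb8, of respiratory complex I, had 8 of 589 reads in replicate 1 and 20 of 1711 in replicate 2 (1.36% and 1.17%). Atp5o, of ATP synthase, had 1 of 1013 and 5 of 3199, and Cox4i1, of cytochrome oxidase, had 1 of 3551 and 3 of 13493. Complex I genes outside the list were among the 25 with most NMD reads: Ndufs6-202 had 13 of 156 and 22 of 462 (8.33% and 4.76%), and Ndufa3-204 had 6 of 351 and 22 of 1459 (1.71% and 1.51%). Tmem126a, of a mitochondrial membrane protein, had 5 of 51 and 12 of 167.

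Of 84 cytosolic ribosomal protein genes, 19 have an NMD transcript annotated, all with 10 annotated-transcript reads or more, and 8 of those (42.1%) had an NMD read, against 19.9% of all such genes. A gene with more reads is more likely to have an NMD read, and depth was not matched. Of the 8 genes, 2 had NMD reads in both libraries. NMD reads were 5 of 11323 reads of the list in replicate 1 and 20 of 31794 in replicate 2 (0.0442% and 0.0629%). Those totals include genes with no NMD transcript annotated. All genes with one annotated gave 0.847% and 0.777%. Rps12-204 led with 0 of 11 and 10 of 40, and Rpl22l1 had 1 of 84 and 2 of 323. Rpl10a and Rpl12 had 1 read each, in replicate 1. Ribosomal protein genes have many processed copies, and whether reads were divided among them was not tested. Glycolysis and glycogen genes had 0 NMD reads in the 4 with enough reads, among them Ldha with 19707 annotated-transcript reads over both libraries, and the decay pathway's own factors had 0 in the 1 with enough. Among the 1452 genes without an NMD read, the limit that a count of 0 allows was 7.89% at the median, and 90 had 300 reads or more.

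The annotated type and the structure that defines it did not always go together. Of detected protein coding transcripts with several exons, 42 of 14007 (0.300%) also have their stop more than 50 bases before the last junction, and these held 688 and 929 reads, or 0.0860% and 0.0849% of annotated-transcript reads. They were led by Mtln-201, for the micropeptide mitoregulin (121 and 439 reads), Phlda3-201 (100 and 117), Ptp4a1-206 (107 and 69), Prkag3-206 (91 and 47) and Dusp13-201 (61 and 58), which were chosen by their reads.

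Reads outside the annotated class carried further junctions of NMD transcripts. An intron that occurs in no other annotated transcript was present in 337 members, and reads of every class that span such an intron numbered 1180 in replicate 1 and 1179 in replicate 2, against 790 and 865 reads assigned to the members themselves, ratios of 1.49 and 1.36. For E2f6-204 these were 121 and 81 reads against 113 and 72, and for Srsf9-205 18 and 16 against 9 and 8. Phtf2-207, picked for the widest gap, had 84 and 20 against 1 and 0, so it weighs on the ratio of replicate 1. The intron need not lie near the stop, and such a read need not contain the annotated coding sequence. Another 696 NMD transcripts had 0 annotated-transcript reads but 2474 reads of other classes over an intron of their own. Those with most, picked by that number, were Usmg5-204 (23 and 79 spanning reads in replicates 1 and 2), Celf2-228 (46 and 21), Lrrfip2-215 (46 and 20), Crat-213 (36 and 16) and Zcrb1-206 (14 and 35).

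Further named genes had lower or middling shares. Rbm38, of an RNA-binding protein that acts in muscle differentiation, had 17 of 253 reads in replicate 1 and 12 of 293 in replicate 2 on 2 NMD transcripts. Snapin, of a protein of vesicle and lysosome transport, had 11 of 122 and 11 of 157. In both genes the intervals of the libraries overlapped.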

How the data were processed

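Each library's deposited table gives whole-number read counts per transcript model, which the authors did not normalise, and a deposited annotation gives the models' exons. Per the file headers, reads were assigned to GENCODE M21 transcripts on mm10 or to new models, separately for each library. Not given in the sources used here are the aligner, the read filters and whether strand was used, so a gene and an antisense partner may share reads. Members were rows of the Known class, reads matched to an annotated transcript, whose annotated type is nonsense_mediated_decay. Stops, introns and coding sequence came from the M21 annotation and transcript sequences. Coordinates count from 1.

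Shares are NMD reads over Known reads of the gene or library, with 95% Clopper-Pearson intervals, and a count of 0 allows up to 3 reads. Reads may be copies of 1 molecule, so intervals cover counting error only. Transcript shares were compared between the 2 libraries, never conditions, by Fisher's exact test over all Known transcripts of genes with 10 or more Known reads in each, with Benjamini-Hochberg adjustment (Python 3.11, pandas 2.3.3, SciPy 1.17.1, NumPy 2.4.6, matplotlib 3.10.9). Differences are replicate 1 minus replicate 2. The test was tried on simulated reads, with 4 times the odds in replicate 1 for the changed transcripts. In genes with 10 to under 50 Known reads in the library with fewer, it called 13 of 144 (9.03%). It called 35 of 45 at 50 to under 200 reads and 11 of 11 at 200 or more. With no change simulated it called 0. Changed transcripts were drawn only from those with neither a very low share nor a majority of their gene's reads. The rates therefore do not apply to members with a low share, such as Capza2-202 (7 of 667 and 5 of 624).

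Named genes were the 25 with most NMD reads, the 10 with the highest share at 20 or more Known reads, those past the threshold, up to 5 per list of the 6 gene lists, and up to 10 whose NMD transcript was most read in both libraries. Members, lists and the rule were chosen with earlier results of these data known. Alternatives changed the denominator, read minimums, the test, single genes and libraries; leaving out members that share introns or coding sequence with a coding transcript was added after the data were seen. 1 gene that the rule names is not reported here.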

Additional observations from a re-analysis of the deposited data

How the results depend on the processing

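The NMD share of annotated-transcript reads averaged 0.150% over the 2 libraries and ranged from 0.141% to 0.160% when either was left out. The denominator moved it most. Over only the genes with an NMD transcript annotated it was 0.82% (0.855% and 0.785%), with replicate 1 again the higher (p = 0.0232, Fisher exact test). The read totals behind these values were slightly smaller than those behind the 0.847% and 0.777% set beside the gene lists. Over all reads in annotated genes the NMD share was 0.102% and over transcripts with 2 or more reads 0.130%, where the libraries no longer differed past the threshold (p = 0.160 and 0.0816, Fisher exact test). Over transcripts with 5 or more reads it was 0.102% with the direction turned round, 0.0998% in replicate 1 and 0.104% in replicate 2 (p = 0.430, Fisher exact test); the cause was not tested. Without Smpx it was 0.127%, without members that hold a coding transcript's full coding sequence 0.114%, and without those that share its introns 0.126%, each with replicate 1 the higher. The 100 genes with an NMD share of 10% or more became 29 with 50 or more annotated-transcript reads and 193 with no minimum, and 70 to 74 with 1 library left out. Past the threshold between libraries, Ddx5-208 was called at each read minimum and denominator tried (adjusted p 0.00120 to 0.00407, Fisher exact test), and 0 members with an overdispersion factor of 2. The share of members of replicate 1 read again in replicate 2 was 54.0%, and 74.7% and 91.7% at 2 and 5 reads or more; from replicate 2 it was 57.4%, 75.7% and 91.4%. Over reads of every class, 21 of the 40 named genes moved by more than the SD of the 2 libraries, with Smpx at 75.5%, E2f6 at 66.0%, Tardbp at 22.6% and Smdt1 at 5.92%. No paired analysis was possible because the series has 1 group.

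Depth limits most statements: 232 of 511 members rest on 1 read. The 2 libraries give no estimate of the spread between animals beyond their own difference. The annotated type depends on the release.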
